A study of Arabidopsis thaliana with 3 samples.

Results

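The strongest sites of the deubiquitinase UBP5 on the chromosome arms of Arabidopsis are described here, with the genes under them, their position in those genes and their neighbours. A site is a peak of replicate 1 that overlapped a replicate 2 peak by at least 1 bp, had a fold enrichment over the input of at least 3 in both replicates, and had its summit (the highest point of the peak) outside the pericentromeric windows. Those windows ran from 11.5 to 17.7 Mb on chromosome 1, 1.1 to 7.2 Mb on chromosome 2, 10.3 to 17.3 Mb on chromosome 3, 1.5 to 6.3 Mb on chromosome 4 and 9 to 16 Mb on chromosome 5. The rule gave 739 strong arm sites, which is 9.82% of the 7522 arm peaks shared by the replicates. The remaining 6783 are called the other shared arm peaks. The strong sites were selected on fold enrichment, so it and the measures tied to it (q-value and peak width) are given as a description, and no difference between the groups was tested.

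The material was seedlings of a UBP5pro::gUBP5-GFP line, which carries genomic UBP5 fused to GFP under its own promoter in the ubp5 mutant in a Col-0 background, collected at 12 days after germination (DAG). Chromatin was cross-linked with 25 mM EGS, which bridges proteins to each other, and with 1% formaldehyde, and sheared to 200 to 500 bp. The series held 2 replicates of the UBP5-GFP immunoprecipitate (IP), made with an antibody against GFP, and 1 input of the same line, which served both replicates. Peaks on chromosomes 1 to 5 numbered 10266 in replicate 1 and 10898 in replicate 2. No IP from plants without GFP was analysed here, so UBP5 occupancy and any background of the IP that the input does not show cannot be told apart. Peaks report where the fusion protein was recovered, in whole seedlings that mix all cell types.

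Ubiquitin-specific proteases cut ubiquitin from proteins, and UBP5 acts on histone H2A. Polycomb repressive complexes (PRCs) keep genes silent through ubiquitin on H2A, placed by PRC1, and methylation of H3K27, placed by PRC2. UBP5 counters the first of these marks, and the study reports that it also limits gain of the second at a set of genes. In Arabidopsis, Polycomb complexes are brought to DNA through short elements such as the Telobox, which resembles the telomere repeat and is bound by TRB proteins, and GAGA repeats, which are bound by BPC proteins. The Telobox was searched here as AAACCCTA and the GAGA repeat as GAGAGAGA, each on both strands and within 100 bp of the summit.

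The sequences under the strongest sites show how the Telobox and its relatives lie there. All are from the RefSeq TAIR10.1 assembly, read along the coding strand of the gene. The first set comes from summits in 5′ UTRs and is kept to 30 bases around the Telobox nearest the summit, which is in capitals (TAGGGTTT is the same word on the other strand). They were picked because they hold the word: of the 25 highest sites, AT1G26580, AT1G63170, AT3G24870, AT3G24880 and AT2G36480 also had 5′ UTR summits but no Telobox within 100 bp, and are not shown.
SMC2, chr5:25056235-25056264, plus strand: tcgcttttttcTAGGGTTTtgtcgcatatg
UBC22, chr5:1500378-1500407, minus strand: ttgattcgtttTAGGGTTTtctttgattca
BPM2, chr3:1876700-1876729, minus strand: cctgtgattcgAAACCCTAatttcgcctat
HEB2, chr3:5698944-5698973, minus strand: ttcagagttttTAGGGTTTcagctttttct
UBP20, chr4:9939860-9939889, plus strand: tcctatcgacgAAACCCTAatttttcacac

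The second set shows the 50 bases to either side of the summit in first introns or coding exons, with Teloboxes again in capitals. MBD10 held a pair of them in opposite directions and AT1G19980 held one, while these stretches of CCT2 and HTA10 held none (HTA10 has 1 farther out, within 100 bp of the summit).
MBD10, chr1:5277091-5277191, minus strand: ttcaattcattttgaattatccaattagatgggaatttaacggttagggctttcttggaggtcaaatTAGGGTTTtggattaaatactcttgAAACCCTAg
AT1G19980, chr1:6933352-6933452, plus strand: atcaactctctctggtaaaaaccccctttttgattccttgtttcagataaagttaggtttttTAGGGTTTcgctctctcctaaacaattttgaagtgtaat
CCT2, chr4:8637933-8638033, plus strand: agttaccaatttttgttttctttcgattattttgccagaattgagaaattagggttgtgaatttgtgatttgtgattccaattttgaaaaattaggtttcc
HTA10, chr1:18927198-18927298, plus strand: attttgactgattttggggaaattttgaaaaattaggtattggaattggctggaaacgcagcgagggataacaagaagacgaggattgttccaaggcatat

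The highest 2 sites of all lie in first introns of ELM2 domain genes, and neither has the AAACCCTA word within 100 bp of its summit. The windows of 100 bp to either side of their summits shared a run of 15 bases, CCTAACCCTAGATTT, which contains the shorter telomere-like word AACCCTA and was found at none of the other 6783 shared arm peaks. The run was picked because these windows share it, so its absence from the other peaks does not set it apart. A run of 13 bases shared by the windows of AT2G03470 and AT1G26580, without a telomere-like word, was also found at 0 of them. A run of 10 bases shared by AT1G13880 and AT1G26580 was found at 37 of them. The run of 15 bases lay 90 bp past the summit of AT2G03470 and 92 bp past that of AT1G13880 in the direction of transcription. With the stretches aligned on the run, 20 of the 46 bases shown outside it were identical. The run is in capitals below, as it reads on the coding strand.
AT2G03470, chr2:1047230-1047290, minus strand: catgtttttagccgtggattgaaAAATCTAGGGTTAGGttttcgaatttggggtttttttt
AT1G13880, chr1:4749364-4749424, plus strand: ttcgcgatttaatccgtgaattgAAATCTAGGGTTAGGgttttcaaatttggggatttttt

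The strong arm sites ranged from 3.00 to 18.2-fold over the input in replicate 1 and from 3.00 to 15.3-fold in replicate 2. In replicate 1 the median was 4.27 (quartiles 3.87 and 4.96) and in replicate 2 it was 3.49 (3.19 and 4.00), while the other shared arm peaks had medians of 2.402 and 1.92. The distribution was steep: the lower of the replicates' values reached 4 at 184 sites, 5 at 64, 6 at 26, 8 at 11 and 10 at 3. The −log10 q had a median of 57.8 for replicate 1 against 99.8 for replicate 2. The sites were 655 bp wide in replicate 1 and 690 bp wide in replicate 2 (medians), and the other shared arm peaks were 452 and 457 bp wide.

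The replicates placed the strong sites alike. Their summits lay a median of 24 bp apart, and 81.9% were within 50 bp of each other, whereas the other shared arm peaks had a median of 41 bp and 58.1% within 50 bp. The same gene lay under both summits at 732 of 739 sites. Fold enrichment was higher in replicate 1 at 96.1% of the strong sites, with a median ratio of 1.21. Pearson's r between the replicates was 0.877 on the log2 scale and Spearman's rho 0.809, across the 739 sites. The points share 1 input and were cut at the same threshold, and no p-value was computed. The input level behind each peak was worked out from its fold enrichment and p-value. Its median over all peaks of the replicate is called the background here. The level exceeded 1.1 times the background at 7 strong sites in replicate 1 and at 6 in replicate 2. Its quartiles over the strong sites were 0.9872 and 0.989 in replicate 1, and 0.9999 and 1.003 in replicate 2. The divisor was thus nearly the same at most strong sites, and their fold enrichment mainly follows the IP pileup.

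**Figure D1:**
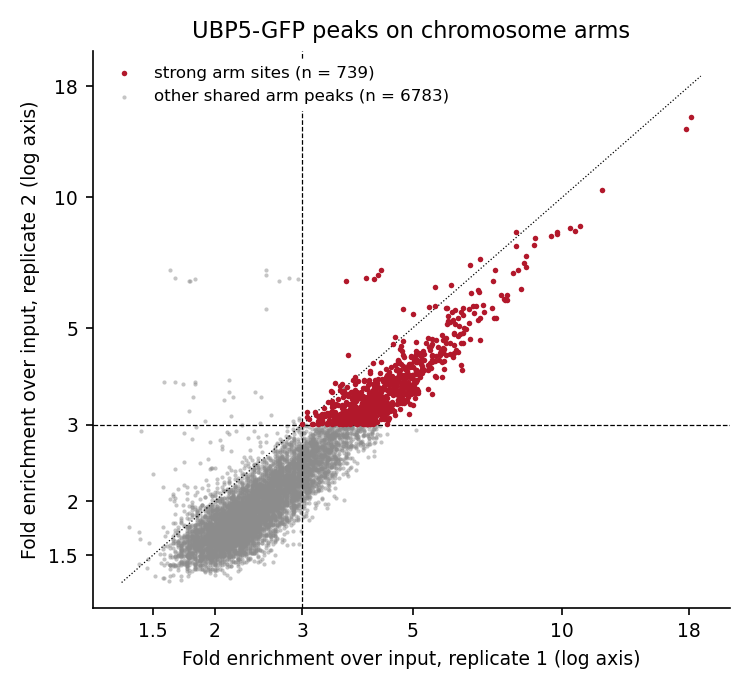
Fold enrichment over the input of each arm peak shared by the replicates, replicate 1 on the horizontal and replicate 2 on the vertical log axis. Red points are the 739 strong arm sites and grey points the 6783 other shared arm peaks. Dashed lines mark 3-fold and the dotted line equal values. Most points lie below the dotted line, and 5 red points near 4-fold in replicate 1 and above 6-fold in replicate 2 stand apart from the rest.

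The threshold cut through a continuous range. Just inside it were PHB1, a prohibitin (3.00 in replicate 1 and 3.01 in replicate 2), the PPR protein gene AT2G27775 (4.11 and 3.00) and MAP1A, a methionine aminopeptidase (3.56 and 3.00). Just outside were AT1G29355 (3.05 and 2.997), the ethylene receptor gene ETR1 (3.71 and 2.997) and the non-coding gene AT1G72852 (3.40 and 2.997). Replicate 2 set the cut almost alone: 1164 shared arm peaks reached 3-fold in replicate 1 only and 32 in replicate 2 only. Of arm peaks without a partner, 0 in replicate 1 and 2 in replicate 2 reached 3-fold.

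The 9 highest sites lay in genes for ELM2 domain proteins, ubiquitin factors and condensin subunits. The ELM2 domain genes AT2G03470 (18.2-fold in replicate 1 and 15.3-fold in replicate 2), AT1G13880 (17.8 and 14.3) and AT1G26580 (12.0 and 10.4) came first. The ELM2 domain is known from animal corepressor proteins that bind histone deacetylases. SKP1, the adaptor of SCF ubiquitin ligases, had 10.9 and 8.58. SMC2, a core subunit of the condensin complex that compacts chromosomes, had 10.4 and 8.51, and HEB2, a subunit of condensin II, had 9.47 and 8.17. The ubiquitin-conjugating enzyme UBC22 had 10.6 and 8.38, the RING finger gene AT1G63170 had 9.74 and 8.32, and BPM2, a BTB/MATH adaptor of cullin ligases, had 9.74 and 8.25. By replicate 1 summits, these genes differ in the feature hit: AT2G03470, AT1G13880 and SKP1 in the first intron (SKP1 in a coding exon by replicate 2), and AT1G26580, SMC2, UBC22, AT1G63170, BPM2 and HEB2 in the 5′ UTR.

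The next sites were in genes of mixed function. HTA10, which codes for histone H2A, on which UBP5 acts, had 8.81-fold in replicate 1 and 8.07-fold in replicate 2, with the replicate 1 summit in a coding exon and the replicate 2 summit in an intron. MBD10, a methyl-CpG-binding domain protein, had 8.07 and 7.72. Below these came AT4G11630, a ribosomal protein L19 gene with a 90.3% identical copy elsewhere (8.78 and 7.76), AT5G02520, a dentin sialophosphoprotein-like gene (8.45 and 7.32), the cytomatrix-like gene AT1G19980 (8.38 and 7.06) and CCT2, an enzyme of phosphatidylcholine synthesis (8.47 and 6.91). AT2G36480, a Pcf11-like factor of mRNA 3′ end cleavage, had 8.27 and 6.17. Another ubiquitin-specific protease, UBP20, had 7.25 and 6.40, and the histone acetyltransferase HAC1 had 6.78 and 6.12. Also among the 25 highest sites were AT3G24870 and AT3G24880, adjacent genes for helicase/SANT-associated proteins (6.85 and 7.22, and 6.54 and 6.98), AT5G51410, a LUC7-like gene (7.32 and 6.82), the uncharacterised AT4G38980 (7.96 and 6.69) and the MEF2BNB-like AT2G39170 (6.81 and 6.06).

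Nearly all strong sites lay inside protein-coding genes, close behind the start site. The summit fell in a protein-coding gene body at 96.8% of the sites, in 715 different genes, and no gene held more than 1 strong site. Averaged over the summits of the replicates, 45.6% ± 1.91 of the strong sites were in coding exons, 25.6% ± 1.53 in 5′ UTRs and 25.2% ± 0.574 in introns (SD, n = 2). The other shared arm peaks had 48.9% ± 0.855, 21.8% ± 0.834 and 25.1% ± 0 in these classes (SD, n = 2). Intron summits were in the first intron at 94.1% of 187 strong sites and 90.9% of 1685 other peaks. Both replicates' summits come from the same sites, so these SDs cover the placement of the summit only.

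Distance from the start site was narrowly distributed. In 83.9% ± 0.957 of strong sites, the summit followed the nearest protein-coding start by at most 500 bp, compared with 77.1% ± 1.14 of the other shared arm peaks (SD, n = 2 for both). Median distances were 288 bp (replicate 1) and 289 bp (replicate 2) at strong sites, and 321 and 324 bp at the other peaks. The bin with the most strong sites was 200 to 300 bp, with 33.2% of replicate 1 summits and 37.5% of replicate 2 summits. The first 100 bp after the start held only 2 of the 739 replicate 1 summits. Summits more than 1000 bp downstream were 2.84% at strong sites and 3.52% at the other peaks.

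**Figure D2:**
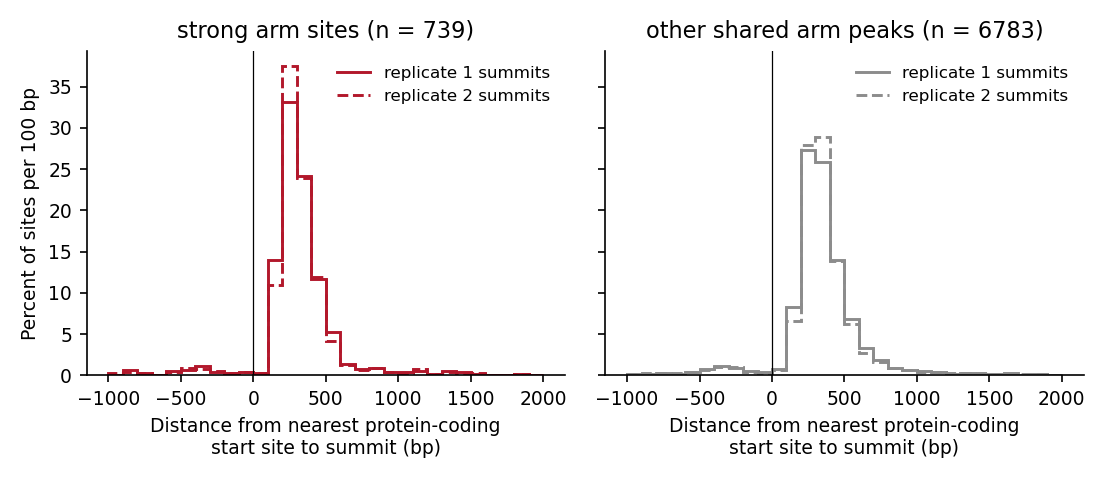
Distance in bp from the nearest protein-coding start site to the summit, in 100 bp bins, as percent of the 739 strong arm sites (left) and of the 6783 other shared arm peaks (right). Solid lines are replicate 1 summits and dashed lines replicate 2 summits. In both groups the summits pile up 200 to 400 bp downstream of the start site.

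The feature under the summit differed between bins of fold enrichment. At the 26 sites with a lower fold enrichment of at least 6, 46.2% of replicate 1 summits were in 5′ UTRs, 38.5% in introns and 11.54% in coding exons. At the 38 sites between 5 and 6, coding exons held 63.2%, so the change was not gradual. The genes themselves were similar in size to those at the other shared peaks. Their median length was 2531 bp with 4 introns, similar to 2583 bp and 5 introns for genes at the other shared arm peaks, whereas arm genes with no shared summit had 1899 bp and 2 introns. An intron inside the 5′ UTR was annotated in 20.4% of the genes at strong sites, 20.0% of the genes at other shared peaks and 12.1% of the rest.

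The Telobox was more frequent at strong sites than at the other shared arm peaks, whereas the GAGA shares were close to each other. A match of these letters is a description of the window and not a bound site. A Telobox lay within 100 bp of the summit at 27.6% ± 0.383 of the strong sites and 14.8% ± 0.125 of the other peaks (SD, n = 2). Of all windows of this length tiled over the arms, 2.43% held the word, and so did 2.17% of windows 1000 bp to either side of the strong summits. In arm genes with no shared summit, 4.56% of windows placed 288 bp downstream of the start held one. GAGA was found at 7.65% ± 0.0957 of the strong sites and 7.17% ± 0.0834 of the other peaks, with 3.497% of tiled windows and 8.77% of the matched windows in genes without a summit. The shorter word AACCCTA, tried after the data were seen, was at 38.0% of strong sites and 20.3% of other peaks, by replicate 1 summits.

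Each main class of feature showed the difference. By replicate 1 summits, the Telobox share was 34.5% of 197 strong sites in 5′ UTRs against 20.9% of the other peaks there, 36.5% of 189 strong intron sites against 17.71%, and 20.2% of 327 strong coding-exon sites against 10.2%. At least 2 Teloboxes within 100 bp were found at 3.38% of strong sites and 1.05% of the other peaks. Among these sites were SKP1, UBC22, BPM2, MBD10, the RING/U-box gene AT1G78420 and the ubiquitin-like gene AT1G68185. The non-coding gene AT2G00890 and the site at the end of chromosome 2 were also among them. A link between the number of Teloboxes and gene function was not examined. Of 224 Telobox words at strong sites, 39.3% read AAACCCTA on the coding strand and the rest TAGGGTTT, and the share was 37.3% of 1032 words at the other peaks.

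**Figure D3:**
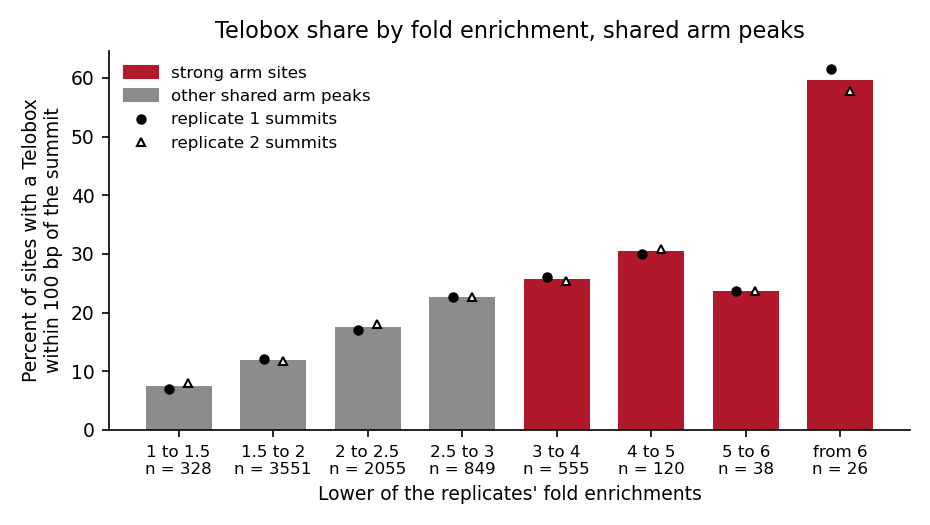
Percent of shared arm peaks with a Telobox within 100 bp of the summit, by the lower of the replicates' fold enrichments. Bars are the mean of the replicates' summits, circles replicate 1 summits and triangles replicate 2 summits, with red bars for strong arm sites and grey bars for the other shared arm peaks. The share is 7.01% below 1.5-fold and 26.1% from 3 to 4-fold by replicate 1 summits, dips to 23.7% from 5 to 6-fold (38 sites) and is 61.5% from 6-fold (26 sites).

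Within the strong sites, the 206 sites with a Telobox had medians of 4.45-fold (replicate 1) and 3.55-fold (replicate 2), and the 533 without had 4.25 and 3.47. The word was not centred on the summit. Read along the gene, the highest share was 100 to 140 bp on the start-site side of the summit, where 11.8% of strong sites and 4.57% of other peaks had a Telobox in a 40 bp bin. Relative to the start site, the share of genes at strong sites with a Telobox was highest 100 to 150 bp downstream, at 9.65%, where genes at other shared peaks had 3.86% and the rest 1.32%. Genes at other shared peaks were highest 50 to 100 bp downstream (4.37%). Over the whole first 500 bp after the start, 51.3% of the 715 genes at strong sites held at least 1 Telobox, compared with 29.1% of genes at the other peaks and 11.3% of arm genes with no shared summit.

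**Figure D4:**
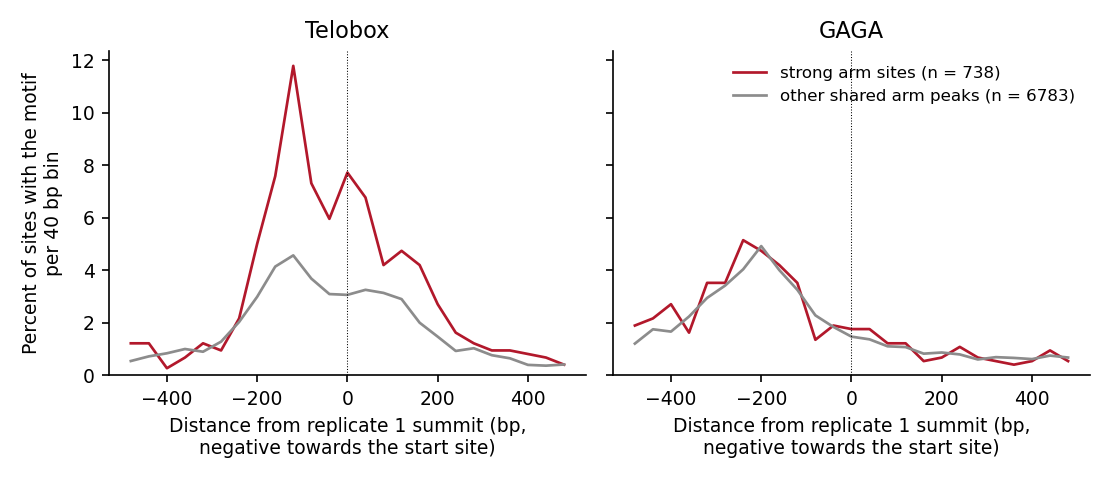
Percent of sites with a Telobox (left) or a GAGA repeat (right) in each 40 bp bin around the replicate 1 summit, negative towards the start site of the nearest gene. The red line is 738 strong arm sites (the site at the end of chromosome 2 is left out) and the grey line 6783 other shared arm peaks. The strong sites have a Telobox in 11.8% at the highest bin (120 bp before the summit), where the other peaks have 4.57%, and the GAGA lines run close together.

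Counting every 8-letter word within 100 bp of the summits gave the same family. The word with the largest excess at strong sites was AAACCCTA itself (27.9% of strong sites and 14.7% of other peaks by replicate 1 summits), followed by AACCCTAA (25.4% and 13.3%), AATTAGGG (14.9% and 5.20%) and ACCCTAAT (15.2% and 6.25%). The first word of another kind was GAAATTGA, at 14.5% of strong sites and 8.24% of other peaks. At the 533 strong sites without AAACCCTA, AATTAGGG was still at 8.63% and 2.73% of the other peaks without it, and GAAATTGA at 13.7% and 8.26%. The telomere-related words were thus also more frequent at strong sites that lacked the Telobox as searched.

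**Figure D5:**
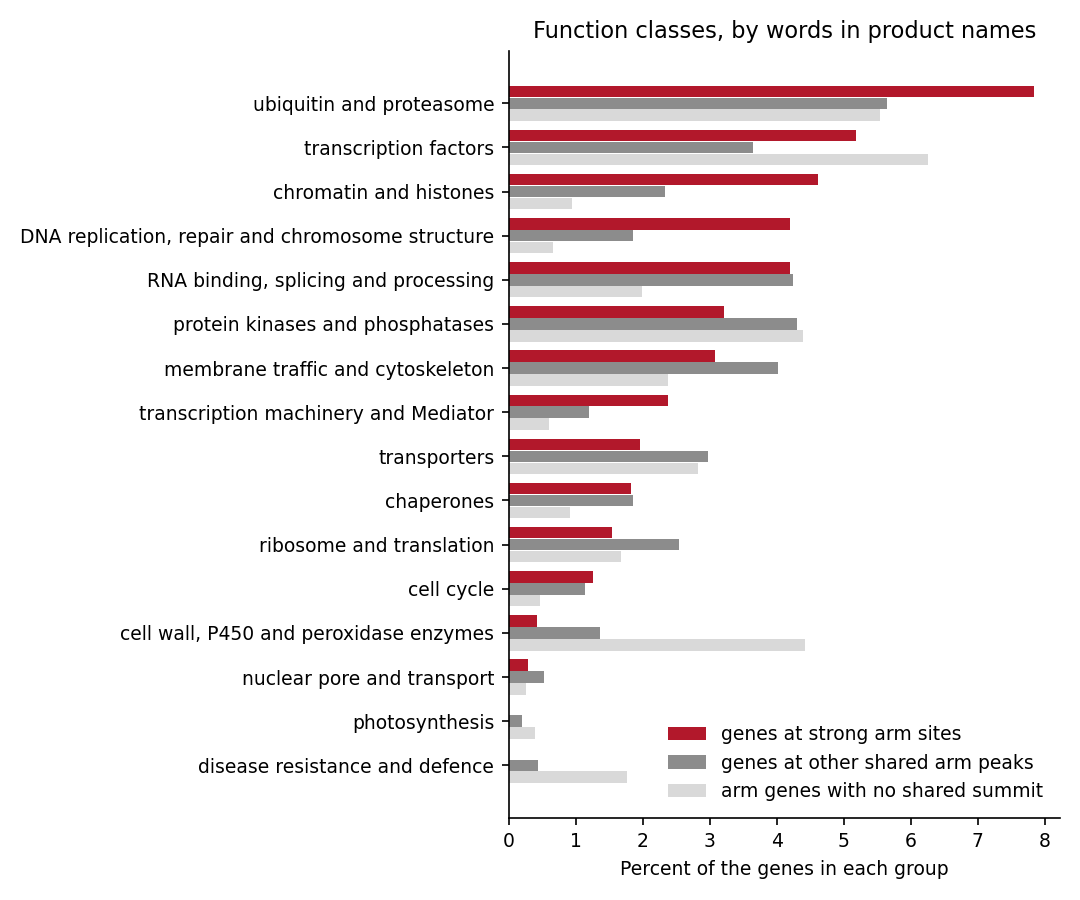
Percent of genes in each function class, found by words in the RefSeq product names, for the 715 genes at strong arm sites (red), 6507 genes at other shared arm peaks (dark grey) and 16837 arm genes with no shared summit (light grey). Chromatin, ubiquitin, DNA replication and repair, transcription machinery and, narrowly, cell cycle have a longer red bar than either grey bar. Photosynthesis and defence have no red bar.

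By function, chromatin and chromosome genes took a larger share of the genes at strong sites than of the other genes. Words in product names were used, so a class is a set of names and not a curated pathway, and 58.9% of the genes at strong sites fell in no class. Across all 24059 protein-coding arm genes, 2.97% had a strong site and 30.02% any shared summit. In the chromatin and histone class 9.57% of 345 arm genes had a strong site. The class made up 4.62% of the genes at strong sites, 2.34% of those at other shared peaks and 0.9503% of those with no shared summit. One of its 33 strong members, the sugar transporter gene PMT5 (6.92-fold in replicate 1 and 5.65-fold in replicate 2), was matched only through the letters of its product name, and without such names the shares were 4.48%, 2.29% and 0.927%.

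The chromatin members spanned histones, their modifiers and their readers. Besides HTA10, histone genes with a strong site were H2AXA, an H2A.X (5.20 in replicate 1 and 4.13 in replicate 2), RAT5, an H2A (4.51 and 3.84), HTR12, the centromeric H3 (4.31 and 3.24), and the histone superfamily genes AT5G59970 (5.89 and 5.19) and AT5G59690 (3.22 and 3.00), which are 97.0% identical under the summit of AT5G59970. Acetyltransferases were HAC1, HAC5 (4.20 and 3.80) and HAG1, the GNAT-type enzyme of the SAGA complex (3.25 and 3.12). SET domain methyltransferase genes were SDG14 (3.78 and 3.16) and SDG40 (3.87 and 3.27). The Enhancer of polycomb-like genes AT4G32620 (4.80 and 3.89) and AT5G04670 (4.25 and 3.04), 2 of the 4 on the arms, are named after a fly gene whose relatives are subunits of histone acetyltransferase complexes. Apart from the classes, 4 of the 6 arm genes named global transcription factor group E, which code for bromodomain proteins, had strong sites: GTE2 (5.20 and 4.31), GTE7 (5.23 and 3.93), GTE4 (3.80 and 3.79) and GTE8 (4.05 and 3.62). This family, the Enhancer of polycomb-like genes and the members named beyond the highest 4 of each class were picked out after their values were seen. Their counts are therefore no result beside the 2.97% of all arm genes.

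The DNA replication, repair and chromosome structure class had 30 genes with a strong site, 11.4% of its 263 arm genes. It held 4.20% of the genes at strong sites, 1.86% at other shared peaks and 0.665% with no shared summit. After SMC2 and HEB2 came TOP1BETA, a DNA topoisomerase I (6.56 in replicate 1 and 6.02 in replicate 2), and LIG1, the ligase that joins Okazaki fragments (7.36 and 5.29). Further SMC genes were TTN8 (5.38 and 3.62), SMC3 (4.14 and 3.59) and SMC5 (4.74 and 3.57), whose products form the cohesin and SMC5/6 rings. CENP-C, a centromere protein, had 3.54 and 3.15. TRB1, a protein that binds telomere repeats and the Telobox, had 3.47 and 3.08, with a Telobox within 100 bp of both summits.

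The ubiquitin and proteasome class was the largest in number, with 56 genes, but only 4.13% of its 1355 arm genes had a strong site. It held 7.83% of the genes at strong sites, 5.64% at other shared peaks and 5.54% with no shared summit. UBC22, AT1G63170, BPM2 and UBP20 led it. SKP1 was not in the class because its product name carries none of the words, which shows how the word lists undercount. Further members were KAK, a HECT ubiquitin ligase (5.76 in replicate 1 and 4.44 in replicate 2), CUL4, a cullin scaffold (4.00 and 3.77), the subunits SAE2 (5.14 and 4.36) and SAE1A (5.16 and 3.93) of the SUMO-activating enzyme, BPM3 (4.14 and 3.26) and BPM5 (3.58 and 3.06), and the ubiquitin-specific proteases UBP21 (5.07 and 4.19) and UBP25 (3.51 and 3.05). The class also holds the 5 F-box genes described below. Without sites that have a near-identical copy elsewhere, its share of the genes at strong sites was 7.007%. The other 2 groups were not filtered in this way.

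Genes of the RNA polymerase II machinery formed a further group. The class of transcription machinery and Mediator had 17 genes with a strong site, 8.63% of 197 arm genes, and made up 2.38% of the genes at strong sites, 1.199% at other shared peaks and 0.606% with no shared summit. Its highest members were AT1G75510, the beta subunit of TFIIF (5.07 in replicate 1 and 4.43 in replicate 2), AT5G65120, annotated as a polymerase beta subunit (5.96 and 4.36), NRPB7, a polymerase II subunit (5.25 and 4.02), and the elongation factor gene AT1G71080 (4.89 and 3.93). NRPB1, the largest subunit of the enzyme, had 4.23 and 3.503, and the TATA-binding protein gene TBP2 had 3.49 and 3.05. The general factor TFIIB (3.76 and 3.02) was counted by its name among the transcription factors. In the RNA binding, splicing and processing class, which includes AT2G36480, the share was 4.20% at strong sites, close to the 4.24% at other shared peaks and above the 1.99% with no shared summit. AT4G02840, a small nuclear ribonucleoprotein gene (6.005 and 5.45), and PMH2, a mitochondrial RNA helicase (6.18 and 5.27), were further members.

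Some small families of similar product name were picked out because several members had strong sites, so their counts are no result beside the 2.97% of all arm genes. Both Shugoshin C terminus genes, named after the protectors of centromeric cohesion, had one, AT3G10440 with 5.004 in replicate 1 and 3.71 in replicate 2 and AT5G04320 with 4.16 and 3.52. Of 5 SIN3-like genes, whose products are scaffolds of histone deacetylase complexes, SNL1 had 5.43 and 4.16 and SNL2 had 3.40 and 3.07. Of 5 basic pentacysteine genes, which code for the proteins that bind GAGA repeats, BPC4 had 4.09 and 3.21 and BPC6 had 3.78 and 3.56. For 3 of the 4 genes annotated as SAGA subunits the summit lay in an intron, with AT4G33890 (4.36 and 3.23) the highest in replicate 1.

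Transcription factors had 37 genes with a strong site, 2.79% of 1327 arm genes, close to the 2.97% of all arm genes. The class made up 5.17% of the genes at strong sites, 3.64% at other shared peaks and 6.25% with no shared summit. Its leading members were the C2H2 zinc finger gene AT5G16470 (7.63 in replicate 1 and 5.83 in replicate 2), AT1G29220 (6.65 and 5.42), NF-YA1, a subunit of the CCAAT-binding factor (5.94 and 5.16), and MYB4R1 (6.36 and 5.00). The bZIP pair bZIP19 (5.47 and 3.52) and bZIP23 (3.80 and 3.44), regulators of the zinc deficiency response, and SOG1, the regulator of the DNA damage response (4.49 and 3.62), were also members. Chaperones included CPN10, a co-chaperonin (7.67 and 5.79), AT1G54050 of the HSP20 family (6.09 and 5.51), the DnaJ gene AT5G01390 (6.205 and 5.07) and ARG1, a DnaJ protein of root gravitropism (5.40 and 4.54).

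At the other end, beside the 2.97% of all arm genes, strong sites were on 0 of 324 disease resistance and defence genes and on 3 of 836 genes for cell wall enzymes, cytochrome P450s and peroxidases (0.359%). They were also on 0 of 79 photosynthesis genes, a class too small for that count to be set apart from the share of all arm genes. The 3 were AT5G24318 (4.601 in replicate 1 and 4.76 in replicate 2), AT5G09700 (3.78 and 3.08) and CYP77A9 (3.87 and 3.01). Shared summits of any strength were on 16.5% of the photosynthesis genes and 8.64% of the defence genes, below the 30.02% of all arm genes. Ribosome and translation genes (1.54% of the genes at strong sites and 2.54% at other shared peaks), protein kinases and phosphatases (3.22% and 4.30%), membrane traffic and cytoskeleton (3.08% and 4.01%) and transporters (1.96% and 2.97%) all had a lower share at strong sites than at the other shared peaks. PPK1, a protein kinase (6.12 and 4.46), SEC14 (5.54 and 6.22) and XIA, a myosin XI (5.69 and 4.44), were among their highest members.

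Genes at strong sites had an adjacent strong site about as often as other arm genes. At 5.59% of the genes at strong sites, an adjacent protein-coding gene had a strong site too, and the share was 5.78% for genes at other shared peaks and 5.79% for arm genes with no shared summit. The median distance to the nearest other strong site was 39.3 kb, and 122 sites (16.5%) had another within 10 kb. That share was not compared with what the density of sites alone would give. Some of these neighbours are genes of the same name. TOP1ALPHA (5.85 in replicate 1 and 4.33 in replicate 2) and TOP1BETA lie 5589 bp apart summit to summit, the TFIIA genes AT1G07470 (3.83 and 3.61) and AT1G07480 (3.83 and 3.86) 7532 bp apart, and GATA10 (4.05 and 3.47) and GATA11 (3.49 and 3.13) 3001 bp apart. Others are unrelated by name: UBC22 had strong sites 5471 bp away in the cystatin-like AT5G05060 (3.65 and 3.52, with a 98.5% identical copy elsewhere) and 6501 bp away in AT5G05100 (4.23 and 3.41), and AT5G51410 had AT5G51400 3723 bp away (4.96 and 4.28). The clock genes PRR7 and LCL1, a LHY/CCA1-like gene, had summits 7570 bp apart.

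A divergent neighbour was common. A protein-coding gene on the other strand started within 1000 bp upstream of 29.5% of the genes at strong sites, 25.7% of those at other shared peaks and 17.6% of arm genes with no shared summit. At a threshold of 4-fold the share at strong sites was 25.42%, so the excess over the other shared peaks was not kept. AT1G13880 starts 165 bp from DRL1, SMC2 361 bp from AT5G62400, HEB2 143 bp from AT3G16740, HTA10 496 bp from AT1G51055, SKP1 603 bp from AT1G75945, BPM2 568 bp from AT3G06200 and AT1G19980 189 bp from AT1G19970. At these 211 genes the partner held a strong summit of its own at 3.79% and a weaker shared summit at 27.5%. The partner held any shared summit at 31.3% of the pairs of strong sites and 41.5% of the pairs of other shared arm peaks. A peak that covered both starts would count for 1 gene only, since genes were taken from the summit. Of the strong sites, 8.53% overlapped at least 2 gene bodies.

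The 24 strong sites outside protein-coding genes were 12 in other annotated genes and 12 with no gene at the summit. The highest in a non-coding gene was AT4G03515 (5.98 in replicate 1 and 6.28 in replicate 2), followed by AT4G02995 (5.47 and 4.59), AT5G01595 (5.12 and 3.62), the miRNA gene MIR865 (4.51 and 3.61) and AT2G42485 (4.45 and 3.60). Sites upstream of genes were led by peaks at -804 bp from the start of ckl7 (4.77 and 4.43, with an identical copy elsewhere), at -140 bp from AT3G62500 (5.76 and 4.41) and at -51 bp from AT1G21320 (5.09 and 4.17). In 3′ UTRs lay AT1G58235 (4.18 and 3.44), EPS1 (3.91 and 3.19) and AT5G59690. The 1 intergenic site was at the very end of chromosome 2 (chr2:19698035-19698282), at -1321 bp from the start of AT2G48160, with 8.07 and 8.32. It held the most Teloboxes of any site, and a stretch centred on its summit is shown with them in capitals.
chr2:19698092-19698192, plus strand: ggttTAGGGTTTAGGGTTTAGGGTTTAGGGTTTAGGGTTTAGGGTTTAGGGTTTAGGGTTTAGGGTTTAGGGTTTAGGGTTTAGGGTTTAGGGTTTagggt
The input level there was 2.67 times the background in replicate 1 and 2.86 times in replicate 2, the highest of any strong site, and the sequence has near-identical copies elsewhere, so its value is uncertain.

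Another 35 strong sites also had a near-identical copy, of at least 90% identity over at least 150 bp of the summit window, and 36 did in all (4.87%). The authors' methods state that only reads with a single place in the genome were kept. How reads were placed at such copies was not examined here, so their signal cannot be fully told apart. AT3G24870 and AT3G24880, SEC14 and AT4G03515, AT1G53900 (5.00 in replicate 1 and 5.40 in replicate 2) and AT1G53880 (4.78 and 5.54), and the TFIIA genes are among the pairs in which both members are strong sites. Of the 29 strong sites where replicate 2 had the higher fold enrichment, 14 had a copy, and of the 710 where replicate 1 was higher, 22 had one.

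The F-box genes AT1G24800, AT1G24881, AT1G25055, AT1G25150 and AT1G25211, all annotated as F-box family proteins and spaced 14390, 22564, 14392 and 14353 bp apart on chromosome 1, differed from the rest in their replicate ratio. Their fold enrichments were 4.27, 4.19, 4.31, 3.68 and 4.03 in replicate 1 and 6.63, 6.49, 6.80, 6.41 and 6.52 in replicate 2. They were the only strong sites where replicate 2 exceeded replicate 1 by more than 1.2 times. Replicate 1 peaks there were 831 to 1008 bp wide, and the replicate 2 partners were 5127 to 11111 bp wide and each took in 1 to 3 further replicate 1 peaks. The summit stretch of AT1G24800 shows the shared sequence, and it occurs 5 times on chromosome 1 without a mismatch.
AT1G24800, chr1:8769762-8769822, plus strand: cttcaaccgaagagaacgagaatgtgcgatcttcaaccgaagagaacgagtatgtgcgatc
The copy number of this block in the plants used was not measured.

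Among the genes looked up because the study names them, 3 had a strong site. Of these, AT1G13880 and AT4G39560 are loci that the study used as UBP5 targets in ChIP-qPCR. The count is thus no result beside the 2.97% of all arm genes. GC4, a golgin, had 4.14 in replicate 1 and 3.15 in replicate 2 with the summit 209 bp into the gene, and AT4G39560, a kelch repeat gene, had 5.40 and 5.59, so it was among the 29 sites higher in replicate 2. AT1G13880 was described above. UBP5 itself, the PRC2 genes CLF, SWN, EMF2, VRN2, FIE and MSI1, and the PRC1 gene DRIP1 (BMI1B in the study) each had a shared arm summit below the threshold. AT3G13310, the study's ChIP-qPCR negative control, had no shared arm summit. SAMBA had none either, though the study lists it among UBP5 target genes. Only arm summits were looked up, so a peak inside the pericentromeric windows would not appear here. EMF1, a plant Polycomb protein added to the looked-up genes for its function, had a strong site (4.27 and 3.40), with the summit in the 5′ UTR and no Telobox within 100 bp. It was the only gene added, so it does not stand for Polycomb genes as a group.

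Strong sites were spread over all arms. They numbered 188 on chromosome 1, 100 on chromosome 2, 160 on chromosome 3, 109 on chromosome 4 and 182 on chromosome 5, or 7.35 to 9.72 per Mb of arm. Their share of the shared arm peaks was 9.27% to 10.2% by chromosome. By distance from the chromosome end it was 10.4% within 1 Mb, 10.8% from 1 to 3 Mb, 8.58% from 3 to 6 Mb and 9.95% farther in.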

How the data were processed

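Per the authors' methods, SOAPnuke cleaned the reads, Bowtie2 2.4.5 mapped them to TAIR10, only unique alignments were kept, and MACS3 3.0.0 called peaks in each replicate against the same input. The authors used deepTools for signal tracks, which were not used here. Each deposited list gives the fold enrichment at the summit, a ratio of the IP pileup to a level taken from the input. It also gives −log10 p-value and −log10 q-value columns, as the authors' caller wrote them. Read totals were not used here.

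Peaks on chromosomes 1 to 5 were used, and 1 mitochondrial peak of replicate 1 and 63 of replicate 2 were left out. No peak ran past a chromosome end of RefSeq TAIR10.1, which gave sequence and genes; 4843 pseudogenes were left out. Each replicate 1 peak was paired with the replicate 2 peak it overlapped most. Pairs AT1G79090 and AT1G79100, and AT2G28230 and AT2G28240, share a replicate 2 partner, so the 739 sites have 737 partners. A summit took the class of the annotated feature it fell in, with 5′ UTR before coding exon before 3′ UTR where transcripts differ, and outside genes it was upstream or downstream within 1000 bp or else intergenic. Introns were numbered in the transcript with the longest coding sequence. Words were counted within 100 bp of the summit. A Poisson tail gave the input level from each peak's p-value and enrichment. Copies were searched with BLAST+ 2.17.0. Calculations used Python 3.11.15, NumPy 2.4.6, pandas 2.3.3 and SciPy 1.17.1, and were tested on simulated data.

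The sites, word lists, classes and alternatives were chosen with earlier results of these data known. Named genes are those at the 25 sites with the largest lower fold enrichment, up to 4 per function class, those at the threshold, with the most extreme replicate ratios, at neighbouring or divergent pairs, in rare positions, with the most Teloboxes, and those the study names. Some genes that meet this rule are not reported here. SDs are over 2 replicates, and differences were not tested. Alternatives were other fold thresholds, overlaps, windows, words and distances, and each replicate alone.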

Additional observations from a re-analysis of the deposited data

How the results depend on the processing

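The fold threshold decided how many sites were strong: 1588 at 2.5-fold and 184 at 4-fold. Selecting on a single replicate gave 752 to 1903 sites, the larger number without replicate 2. The Telobox share at strong sites was 33.15% at 4-fold, and from 22.7% without replicate 2 to 26.99% without replicate 1. It was 15.02% within 50 bp of the summit, 52.1% within 200 bp and 38.02% with the shorter word AACCCTA, which was chosen after seeing the data. At 4-fold, chromatin genes made up 7.345%, DNA replication and repair genes 6.215% and nuclear pore genes 0% of the genes at strong sites. Of 210 alternative values, 188 stayed within the 95% exact binomial interval of the reported value or, for a number of sites, within 1.5 times, and 22 did not. That interval treats sites and genes as independent, and many alternatives share most of their sites with the main set. The tally is therefore a description and no measure of robustness. The small GAGA excess of strong sites turned round with the word GAGAGA (31.94% of strong sites and 32.58% of other peaks) and was 5.978% at 4-fold, below the 7.224% of other peaks; the head-to-head share fell to 25.42% at 4-fold, below their 25.7%. Leaving out sites with a near-identical copy (28.45% with a Telobox) or a raised input level (27.67%), both also chosen after seeing the data, moved the Telobox share little. No paired analysis was possible because both replicates belong to 1 group and share 1 input. The read depth behind the peaks was not analysed here, and a fold enrichment at the summit carries no error of its own.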
